A study of Mus musculus with 2 samples.

Results

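MicroRNA genes of blood cells, 8 in all, were followed in the face of the mouse embryo: 3 genes of red blood cells (Mir451a, Mir144 and Mir486) and 5 genes of white blood cells (Mir142, Mir223, Mir150, Mir155 and Mir146, the last of which encodes miR-146a). These 8 genes were taken by name out of the 1973 miRNA genes in the count files, and all 8 had at least 10 counts in both libraries, as did 361 genes in all. Mir142 has no line of its own in the files, so it was read from the counts on the opposite strand of Mir142b, the gene annotated across it.

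Short RNA below 30 bases was sequenced from facial prominences of B6NCrl embryos at day 13.5, with males and females pooled. The facial prominences are the swellings of mesenchyme, covered by epithelium and supplied by vessels, from which the jaws, palate and nose form. The series holds 2 libraries, which the labels call biological replicates 1 and 2 of the same tissue, and no treated, mutant or other group. The data therefore give the level of each gene and its spread between the libraries. The tissue was taken whole, so every value below comes from a mixture of cells in which fewer blood cells and less RNA per blood cell cannot be told apart.

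A microRNA is cut from a hairpin in a longer transcript and loaded into an Argonaute protein, where bases 2 to 8, the seed, pair with target messages. Mir144 and Mir451a are made from 1 transcript that the factor Gata1 drives in erythroid cells, and miR-451a is unusual in that Ago2 cuts it without Dicer. Mir142 is transcribed in nearly all blood lineages, Mir223 in granulocytes and monocytes, Mir150 in mature lymphocytes, and Mir155 and Mir146 in lymphocytes and macrophages that have been activated. In the embryo at this age red cells circulate through every vascular tissue, and macrophages are the main resident white cells outside the liver.

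Each sequence is from RefSeq (GRCm38.p6), whose miRNA table held mature sequences for 7 of the 8 genes, and Mir486 was not among them. Mature forms of the genes described most closely below are shown because their seeds define what each can pair with, and capitals mark the seed. None is printed for Mir150, for which the table held miR-150-3p.
miR-451a: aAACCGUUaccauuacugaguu
miR-144-3p: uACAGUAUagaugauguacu
miR-144-5p: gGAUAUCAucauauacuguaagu
miR-142a-3p: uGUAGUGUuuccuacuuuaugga
miR-142a-5p: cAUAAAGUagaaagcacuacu
miR-142b: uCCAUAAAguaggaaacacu
miR-223-3p: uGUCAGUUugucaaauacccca
miR-155-5p: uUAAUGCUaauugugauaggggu
miR-146a-5p: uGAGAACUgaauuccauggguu
miR-146b-5p: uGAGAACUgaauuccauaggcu
Among the mature sequences that the table held for the 7 genes, no seed was shared between genes. Among the 1738 mature sequences of the table, the seeds of miR-451a, of both miR-144 arms, of both miR-142a arms, of miR-223-3p and of miR-155-5p occurred in no other miRNA. The seed of miR-146a-5p was shared only with miR-146b-5p, the product of Mir146b, which had 4 counts in replicate 1 and 5 in replicate 2. Mir146 had 339 and 276 counts. Each count sums over both arms of a hairpin, so the reads that carry this seed were not counted apart.

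The erythroid pair lies on chromosome 11 (GRCm38, plus strand), where Mir144 spans 78073005 to 78073070 and Mir451a spans 78073170 to 78073241, and 99 bases separate the hairpins. The hairpins are shown because their layouts differ, with the mature sequences in capitals.
Mir144 hairpin: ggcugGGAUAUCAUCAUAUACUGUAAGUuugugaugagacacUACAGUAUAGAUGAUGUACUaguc
Mir451a hairpin: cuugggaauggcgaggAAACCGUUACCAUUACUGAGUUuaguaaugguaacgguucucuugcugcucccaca
Mir144 carries a mature sequence on each arm, while the mature sequence of Mir451a is a single stretch of 22 bases that runs from the 5′ arm into the loop. Mir451b is annotated on the other strand over exactly the bases of Mir451a, and 16 of the 22 bases of miR-451a (aaccguuaccauuacu) recur in a row on that strand. A full-length read of miR-451a differs between the strands, whereas a read trimmed to those 16 bases would fit both and would not be counted. Mir451b has no line in the count files, and the opposite strand of Mir451a had 0 counts in both libraries.

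Mir142 spans 87756864 to 87756927 of chromosome 11, plus strand, within an intron of the long noncoding gene Mir142hg, and Mir142b covers it on the minus strand from 87756841 to 87756955. Both hairpins are shown because the counts of one are read from the line of the other.
Mir142 hairpin: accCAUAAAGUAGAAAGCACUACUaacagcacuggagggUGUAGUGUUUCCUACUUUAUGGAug
Mir142b hairpin: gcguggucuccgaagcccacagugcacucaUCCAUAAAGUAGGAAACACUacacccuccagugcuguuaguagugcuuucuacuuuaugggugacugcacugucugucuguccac
Reads on the strand of Mir142b itself numbered 0 in replicate 1 and 1 in replicate 2, against 1701 and 2344 on the strand of Mir142. The longest run that a mature miR-142a sequence shares with the opposite strand of its own hairpin was 11 bases for miR-142a-3p and 10 bases for miR-142a-5p. The files do not separate the arms of a hairpin, so each count is the sum over both.

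**Figure D1:**
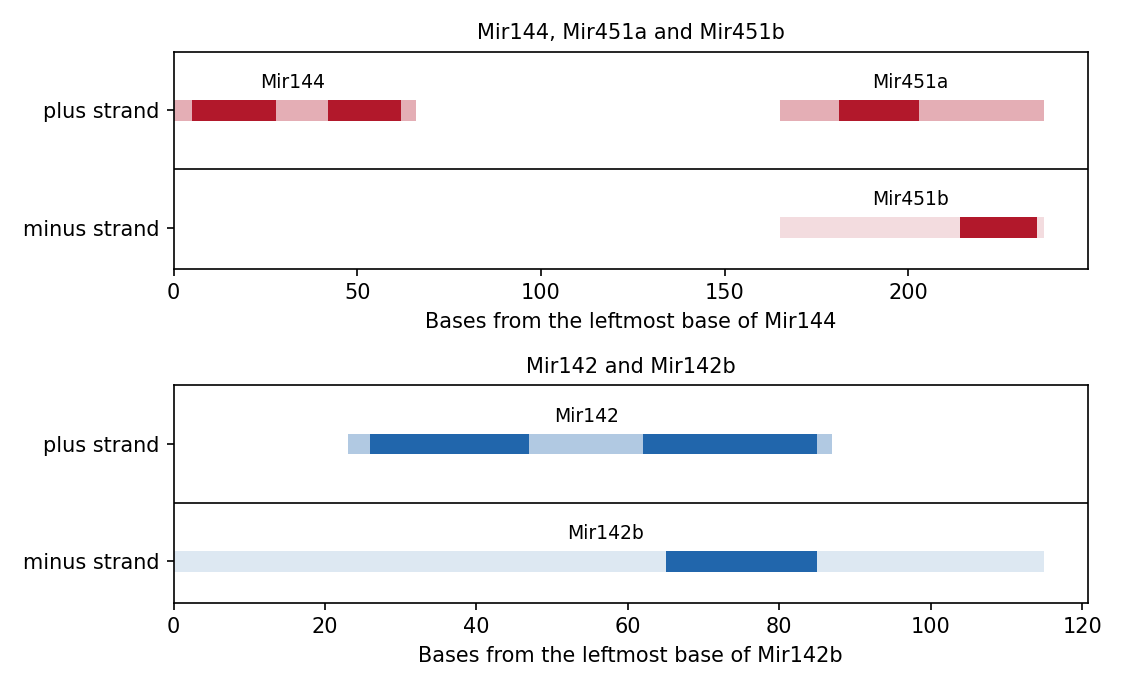
Maps to scale of the Mir144 and Mir451a locus (top) and the Mir142 locus (bottom), with bases from the leftmost base of Mir144 or of Mir142b on the horizontal axis and the strand on the vertical axis; pale bars are hairpins and dark bars mature sequences. Mir451a and Mir451b occupy the same 72 bases on opposite strands, and Mir142b spans Mir142 on the other strand.

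The other members lie apart from each other. Mir223 spans 96242817 to 96242926 of chromosome X, plus strand, within an exon of F630028O10Rik. Mir155 spans 84714140 to 84714204 of chromosome 16, plus strand, within an exon of Mir155hg. Mir146 spans 43374397 to 43374461 of chromosome 11, minus strand, and Mir150 spans 45121757 to 45121821 of chromosome 7, plus strand, and GENCODE M21 shows no other gene across either. Mir5121 lies 5096 bases from Mir150 on the minus strand and has no line in the count files. Mir486 spans 23142555 to 23142682 of chromosome 8, plus strand, within an intron of Ank1, the gene of the ankyrin of the red cell membrane. Mir3107, which RefSeq also lists as mir-486b, covers it on the minus strand from 23142573 to 23142662 and has no line in the count files. Counts of Mir486 are therefore uncertain, since any reads that fit both strands would not be counted. With no mature sequence of Mir486 in the RefSeq table, the run shared between the strands was not measured.

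In sum, counts of the 5 white cell genes exceeded those of the 3 red cell genes in both libraries. Levels are counts per 1000000 counts on miRNA genes (CPM), from gene totals of 4562135 in replicate 1 and 5771249 in replicate 2, and errors are SD over the 2 libraries. They were not divided by gene length, because a read covers a whole mature microRNA whatever the length of its hairpin. The 5 white cell genes summed to 941 CPM in replicate 1 and to 968 CPM in replicate 2, a mean of 955 ± 18.6 CPM (SD, n = 2). The 3 red cell genes summed to 101 and 160 CPM, a mean of 131 ± 41.6 CPM (SD, n = 2). Mir142 and Mir223, at means of 390 and 373 CPM, made up most of the white cell sum. Not every white cell gene was the higher: the means of Mir146 (61.1 CPM) and Mir150 (9.86 CPM) lay below that of Mir451a (76.0 CPM). The median of mean levels was 121 CPM over the white cell genes and 45.0 CPM over the red cell genes. White cell counts were 9.30 times red cell counts in replicate 1 (95% exact binomial interval 8.44 to 10.3) and 6.04 times in replicate 2 (5.64 to 6.49). The intervals do not overlap and cover counting error only. The change was smaller without Mir144, where the red cell sum was 76.1 CPM in replicate 1 against 95.3 CPM in replicate 2, and the white to red ratio was 12.4 and 10.2. Without Mir142, read from the strand opposite its annotated neighbour, the mean ratio was 4.56 in place of 7.67. Any reads that fit both strands at Mir486 or Mir451a would not be counted. The red cell sum may therefore be too low and the ratios too high, which the intervals do not cover.

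All 8 genes together held 0.109 ± 0.00602% of counts (SD, n = 2). Against the markers of the tissue itself this was a small share: Mir126a, the microRNA of the endothelium that lines the vessels, alone held 2.48 ± 0.137%, the 7 epithelial genes 6.34 ± 0.0162% and the 6 genes of mesenchyme and cartilage 5.04 ± 0.141%. Mir126a exceeded the sum of all 5 white cell genes by 27.4 times in replicate 1 and 24.7 times in replicate 2. Mir126b had no line in the files. These shares leave out reads with several places in the genome, which were 30.7% and 31.0% of the reads.

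Mir142 and Mir223 led the members and were close to each other. Mir142 stood at 373 CPM in replicate 1 and at 406 CPM in replicate 2, and Mir223 stood at 383 and 363 CPM. They could not be told apart in replicate 1, and Mir142 was the higher in replicate 2: Mir142 had 0.973 counts for each count of Mir223 in replicate 1 (95% exact binomial interval 0.910 to 1.04) and 1.12 in replicate 2 (1.05 to 1.19). Over the 2 libraries Mir142 averaged 390 ± 23.5 CPM and Mir223 averaged 373 ± 14.0 CPM, ranks 128 and 129 among the 361 tested genes, so their levels did not differ beyond the spread.

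Mir155, a microRNA that immune cells raise on activation, was next, with 103 CPM in replicate 1 against 139 CPM in replicate 2. Its mean of 121 ± 25.3 CPM was near the median of all tested genes, 113 CPM. Mir223 exceeded it by 3.09 times, and the ranges of the 2 genes did not overlap. Mir146, a brake on signalling downstream of Toll-like receptors, stood at 74.3 and 47.8 CPM (61.1 ± 18.7 CPM), and it ran against Mir155, being the higher in replicate 1. For each count of Mir155 there were 0.721 counts of Mir146 in replicate 1 (95% exact binomial interval 0.625 to 0.831) and 0.345 in replicate 2 (0.299 to 0.396). These 2 intervals do not overlap, but they hold counting error only and no variation between libraries. Mir150 was the lowest of the white cell genes, with 37 counts in replicate 1 and 67 in replicate 2. Its level was 8.11 CPM (95% Wilson interval 5.88 to 11.2) in replicate 1 and 11.6 CPM (9.14 to 14.7) in replicate 2.

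Among the red cell genes Mir451a, which promotes the last steps of red cell maturation, was the highest. It reached 65.8 CPM in replicate 1 (95% Wilson interval 58.7 to 73.6) and 86.3 CPM in replicate 2 (79.0 to 94.2). Mir144, its neighbour on the same transcript, had 115 counts in replicate 1 and 374 in replicate 2, which gave 25.2 CPM (21.0 to 30.3) and 64.8 CPM (58.6 to 71.7). Replicate 2 was therefore higher for both, and far more so for Mir144. Mir486 stood at 10.3 CPM (7.75 to 13.7) and 9.01 CPM (6.87 to 11.8), with intervals that overlap. In both libraries each of the 3 lay below the 113 CPM that was the median of tested genes.

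From the top, the order of mean levels was Mir142, Mir223, Mir155, Mir451a, Mir146, Mir144, Mir150 and Mir486. The ranges over the 2 libraries overlapped for Mir142 and Mir223, for Mir451a and Mir146, for Mir146 and Mir144, and for Mir150 and Mir486, so the order within these pairs is not fixed by the data. The steps from Mir223 to Mir155, from Mir155 to Mir451a (1.59 times) and from Mir144 to Mir150 (4.56 times) lay between ranges that did not overlap. The ranges show the spread between the libraries only. Whether equal amounts of different microRNAs give equal counts was not tested.

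**Figure D2:**
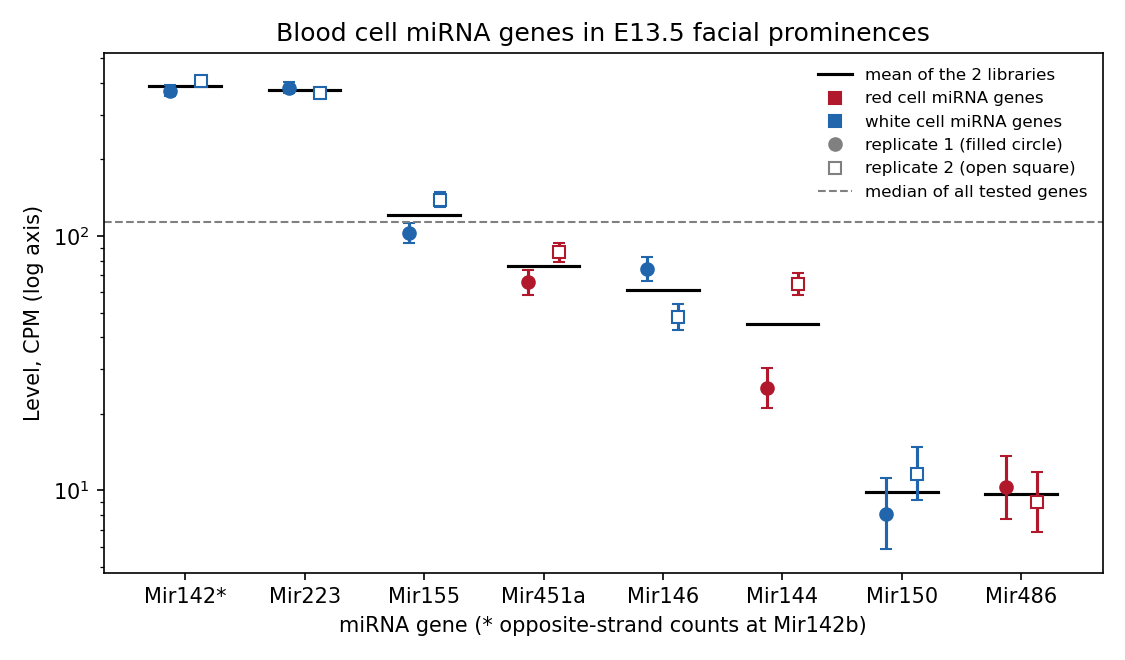
Level of each gene in CPM on a log axis, with replicate 1 as filled circles, replicate 2 as open squares, 95% Wilson intervals as bars and the mean of the 2 libraries as a black line. Mir142 and Mir223 lie between 363 and 406 CPM, above the dashed median of all tested genes, and the 3 red cell genes lie below it.

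The libraries differed most for Mir144. Counts of the 2 libraries were compared gene by gene with an exact binomial test after TMM scaling, with Benjamini-Hochberg adjustment over the 361 tested genes, so that a call means a difference larger than counting error between these 2 libraries and not a difference between conditions. Mir144 was 2.57-fold higher in replicate 2, a log2 ratio of 1.36 (95% interval 1.06 to 1.68, adjusted p = 1.44e-20, exact binomial test). Only 5 of the tested genes, Mir144 included, had a ratio of at least this size in either direction. Mir451a was 1.31-fold higher in replicate 2, a log2 ratio of 0.39 (0.18 to 0.60, adjusted p = 0.000526, exact binomial test), and 101 genes had a ratio at least as large. Mir486 did not pass, at a log2 ratio of -0.19 (-0.79 to 0.41, adjusted p = 0.624, exact binomial test).

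Mir144 and Mir451a, although made from the same transcript, did not differ by the same factor. For each count of Mir451a there were 0.383 counts of Mir144 in replicate 1 (95% exact binomial interval 0.306 to 0.477) and 0.751 in replicate 2 (0.655 to 0.861). The intervals do not overlap, and this ratio within a library does not depend on how the libraries are scaled. The intervals of the 2 log2 ratios, 1.06 to 1.68 for Mir144 and 0.18 to 0.60 for Mir451a, do not overlap either. All of these intervals cover counting error only. Neither gene passed when the test allowed for the variation between libraries. That variation was estimated from the same 2 libraries that were compared, so the outcome cannot decide whether either gene differed. The ratio of Mir144 to Mir451a was not tested against that variation.

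The white cell genes went both ways. Mir155 was 1.35-fold higher in replicate 2, a log2 ratio of 0.43 (0.26 to 0.60, adjusted p = 8.51e-07, exact binomial test). Mir142 was 1.09-fold higher there, a log2 ratio of 0.12 (0.03 to 0.21, adjusted p = 0.0163, exact binomial test). Mir146 was 1.55-fold higher in replicate 1, a log2 ratio of -0.64 (-0.87 to -0.40, adjusted p = 1.66e-07, exact binomial test). Mir223 gave -0.08 (-0.17 to 0.02, adjusted p = 0.156) and Mir150 gave 0.52 (-0.08 to 1.14, adjusted p = 0.146), and neither passed the exact binomial test. At its depth Mir150 would have needed a larger ratio to pass, as its interval spans more than 1 log2 unit.

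In all, 5 of the 8 genes passed, with 4 higher in replicate 2 and Mir146 higher in replicate 1. The background was 55.1% of all tested genes past the test, 28% towards replicate 2 and 27.1% towards replicate 1, so a count of 5 in 8 lies near the background. The red cell genes gave 2 of 3 higher in replicate 2 and a median log2 ratio of 0.39, and the white cell genes gave 2 of 5 higher in replicate 2, 1 of 5 higher in replicate 1 and a median of 0.12. Over all tested genes the median was -0.01, and the median size of a log2 ratio regardless of sign was 0.24, against 0.41 for the 8 genes. The difference in shift between red and white cell genes was not tested, since the genes of a list are not replicates. When the test allowed for the variation between libraries (edgeR's exact test with a common dispersion, a coefficient of variation of 18.0% that was estimated from the same 2 libraries), 0 of the 8 genes passed, 1 had an unadjusted p under 0.05, and Mir144 had an adjusted p of 0.0943.

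**Figure D3:**
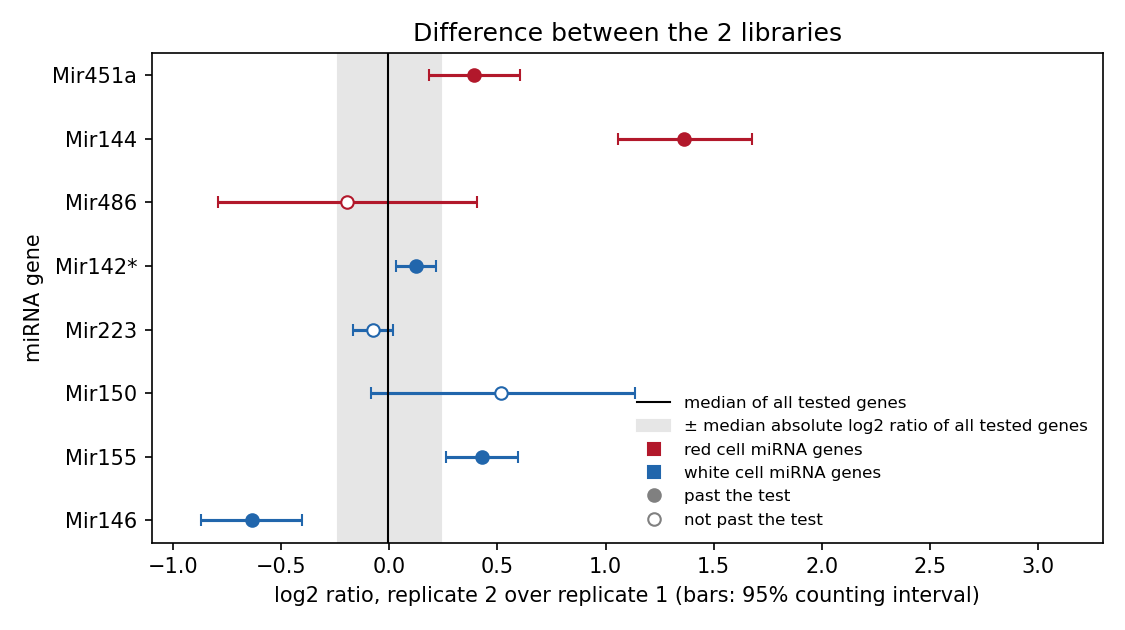
Log2 ratio of replicate 2 to replicate 1 for each gene, with 95% counting intervals as bars, filled points past the exact binomial test and open points not past it; the grey band is the median size of the log2 ratio over all tested genes. Mir144 at 1.36 and Mir146 at -0.64 lie outermost, and Mir486, Mir223 and Mir150 have intervals that include 0.

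Some markers of other organs also differed between the libraries, beside a background of 55.1% of all tested genes past the test and 28% towards replicate 2. Mir122, the microRNA of hepatocytes, stood at 49.5 CPM in replicate 1 against 109 CPM in replicate 2, a log2 ratio of 1.14 (adjusted p = 5.25e-26, exact binomial test). Of the 3 tested genes of the liver list it alone passed, Mir192 and Mir194-2 gave 0.18 and 0.08, and Mir194-1 had 7 and 2 counts. The list summed to 191 and 263 CPM. The 3 genes of heart and slow muscle were also higher in replicate 2: Mir208a at a log2 ratio of 1.18, Mir499 at 0.79 and Mir208b at 0.64 (adjusted p = 0.00983, 0.0323 and 4.2e-06, exact binomial test). Mir206 of skeletal muscle was higher in replicate 1, at -0.86, and Mir133b did not pass, so the 5 muscle genes summed to 632 and 404 CPM. The endothelial Mir126a was 1.08-fold higher in replicate 1. The part of other organs, vessels or muscle in the differences of Mir144, Mir451a and Mir486, the last of which is also made in muscle, was not tested.

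**Figure D4:**
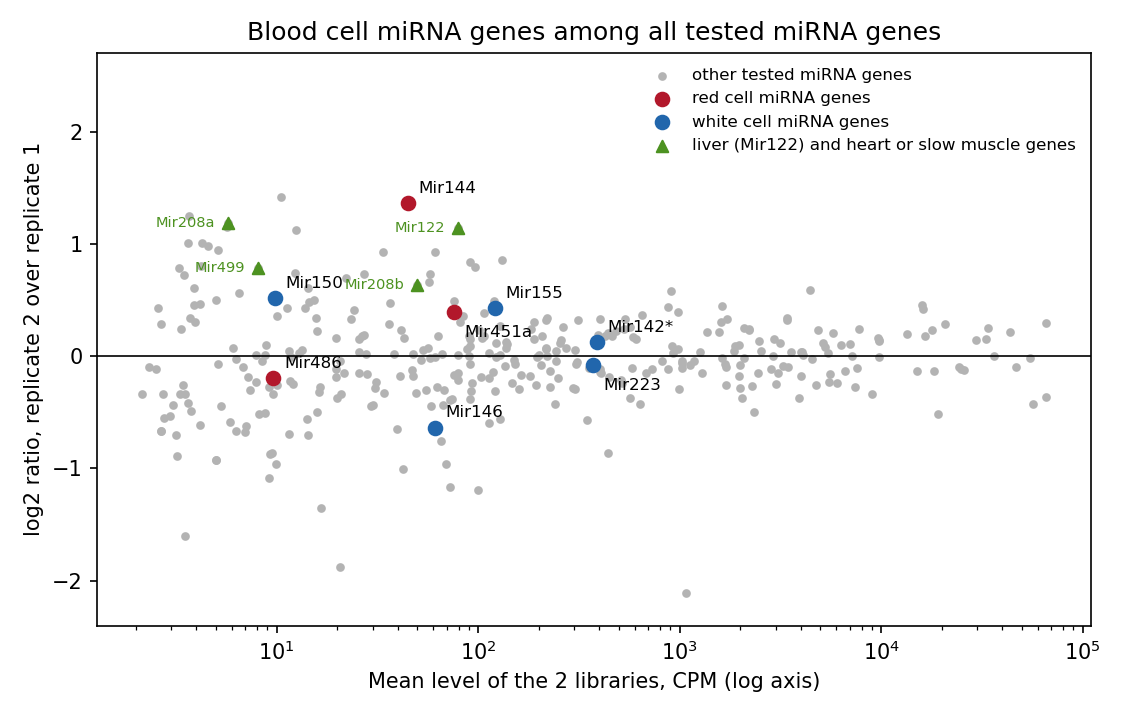
Log2 ratio of replicate 2 to replicate 1 against the mean level in CPM (log axis) for all 361 tested genes, with red cell genes in red, white cell genes in blue, and the liver gene Mir122 and 3 heart or slow muscle genes as green triangles. Mir144 at 1.36 and Mir122 at 1.14 stand above other genes of like level, and Mir142 and Mir223 lie near 0. The other tested liver genes (Mir192 at 0.18, Mir194-2 at 0.08) and muscle genes (Mir206 at -0.86, Mir133b at -0.25) have no triangle.

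The list of 17 other miRNA genes known from blood cells, many of which are also known from other tissues, stood at higher levels in sum. Of these, 16 had a line in the files (Mir191 had none), 14 were tested, 5 were higher in replicate 2, 2 were higher in replicate 1 and 7 did not pass. With 7 of 14 past the test, the list lay near the 55.1% of all tested genes. The largest called log2 ratio was 0.33 towards replicate 2, for Mir181b-2, and -0.18 towards replicate 1, for Mir342 (adjusted p = 1.35e-49 and 2.71e-34, exact binomial test). The 16 genes held 2.10 ± 0.0744% of counts (SD, n = 2), far above the 8 genes, led by Mir21a, a broadly made microRNA induced in inflammation, at 5747 ± 583 CPM. Mir342, known from lymphoid cells and lying in Evl, stood at 3983 ± 344 CPM, and Mir181a-1, which tunes the sensitivity of thymocytes, at 3983 ± 71.0 CPM. At the other end lay genes of macrophages: Mir147 had 16 counts in replicate 1 and 39 in replicate 2, and Mir511, in the mannose receptor gene Mrc1, had 10 and 9. Mir146b was lower still, as given above with its seed.

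Among the tested genes outside the 8, those nearest in level over the 2 libraries were found by the distance between log2 CPM values. Mir451a had Mir190a nearest, at 63.1 and 88.5 CPM, followed by Mir33 and Mir29a. Mir144 had no close match: its nearest gene was Mir7b, at 23.2 and 44.4 CPM and a distance of 0.558 log2 units, followed by Mir208b and Mir219a-1. Mir223 had Mir543 nearest (366 and 341 CPM), Mir142 had Mir598 (366 and 418 CPM), Mir155 had Mir701 (99.7 and 141 CPM) and Mir146 had Mir493 (82.0 and 48.7 CPM). Mir486 had Mir3081 nearest, at a distance of 0.0925, and Mir150 had Mir3058, at 0.119. With 2 libraries such likeness describes the levels only.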

How the data were processed

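The authors deposited whole-number read counts per miRNA gene, made on the mm10 build with the GENCODE M4 annotation, per the description files that came with them. The sources used here do not name the aligner, trimming or counting program. The files have no header, and from their layout the columns were read as unstranded, same-strand and opposite-strand counts. Reads with several places in the genome stand apart, so only uniquely placed reads reach a gene, and sequences present at several loci or on both strands are counted too low. Same-strand counts were used throughout, except for Mir142b, where opposite-strand counts were taken.

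Levels are CPM of the same-strand gene total, with 95% Wilson intervals. A count of 0 allows up to 3 counts (0.658 CPM in replicate 1, 0.520 CPM in replicate 2). Intervals and floors cover counting error only, since PCR copies are not independent molecules. Genes with at least 10 counts in both libraries were scaled by TMM over those genes (edgeR 4.0.16, R 4.3.3), compared with an exact binomial test (two-sided) and adjusted by Benjamini-Hochberg at 0.05. The comparison was tested on simulated data. The simulated counts held known changes and counting error but no variation between libraries, so they cannot show how the test behaves with such variation. These p-values set the difference between the 2 libraries against counting error and hold no spread between samples. The labels give biological replicates without naming the embryos.

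Names and positions came from GENCODE M21 on GRCm38, which matched 1894 of 1973 identifiers. All 8 members, their neighbours within 10000 bases, the 3 highest genes and those of the largest called ratio of the other blood list, and the 3 nearest genes by log2 CPM (pseudocount 0.5) were to be named. For members other than Mir451a and Mir144, only the nearest gene is given. The members and lists were chosen with earlier results of these data known. Alternatives were DESeq2 1.42.0 size factors, total counts, other count minimums, the unstranded column, a common dispersion, other denominators, each library alone, and lists without Mir142b or Mir144.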

Additional observations from a re-analysis of the deposited data

Results flagged for a closer look

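Mir486 had counts on the strand opposite its own, which the levels above do not use: 14 in replicate 1 and 6 in replicate 2, more than the 3 that a count of 0 would allow, beside 47 and 52 on its own strand. Mir3107 (mir-486b) is annotated on that strand. With both strands counted, the log2 ratio of replicate 2 to replicate 1 stood on the same side, and it did not pass the exact binomial test.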

How the results depend on the processing

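The 8 genes kept the sign of their log2 ratio in every setting run. The calls held with DESeq2 size factors, total counts, no count minimum, a minimum of 100 for the genes that met it, and the unstranded column. With edgeR's common dispersion, estimated from the same 2 libraries that it compares, 0 of the 8 genes (5 in the exact binomial test) and 2 of all genes (199) passed. As parts of all reads of each file, the red cell genes summed to 57.6 and the white cell genes to 421 per 1000000, and of the unstranded gene total the latter summed to 929 CPM. Without Mir142b the white cell sum was 565 CPM and the white to red ratio 4.56. Without Mir144, a setting chosen after seeing the data, the red cell sum was 85.7 CPM and the ratio 11.3. Either library alone gave a red cell sum of 101 to 160 CPM, a white cell sum of 941 to 968 CPM and a ratio of 6.04 to 9.30. No paired analysis was possible because the series has a single group. Counts were few for Mir486 and Mir150, under 70 in each library, and those of Mir486 also leave out any reads that fit both strands.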

Other observations

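Other blood-related genes also lie in pairs on 1 strand, and all 5 such pairs of the list of 17 within 10000 bases were set side by side after the values of Mir144 and Mir451a had been seen. Mir16-1 and Mir15a, which restrain the cell cycle and lie 54 bases apart on chromosome 14, differed between the libraries: Mir16-1 gave 0.482 counts per count of Mir15a in replicate 1 (95% exact binomial interval 0.468 to 0.497) and 0.647 in replicate 2 (0.631 to 0.663). Mir16-1 was higher in replicate 2, at a log2 ratio of 0.31, and Mir15a was higher in replicate 1, at -0.12. The intervals overlapped between the libraries for Mir221 and Mir222 (1.48 and 1.59), Mir212 and Mir132 (0.0902 and 0.111), Mir181a-1 and Mir181b-1 (155 and 139), and Mir181a-2 and Mir181b-2 (0.0879 and 0.0757). For the last pair the overlap was slight, from 0.0808 to 0.0812. Overlap of intervals does not show that a ratio stayed the same. Counts of Mir16-1 and of the Mir181 genes leave out reads that fit a second locus. The change of ratio between the libraries was 1.34-fold for Mir16-1 and Mir15a, against 1.96-fold for Mir144 and Mir451a.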
